A study of Homo sapiens with 13 samples.

Results

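Fibrillin 2 (FBN2) and 9 other genes of the elastic microfibril, namely FBN1, LTBP1, LTBP2, LTBP3, LTBP4, EFEMP1, EFEMP2, MFAP2 and FBLN1, were followed in bone-metastatic lung cancer cell lines and their control cells. Every probe set of the arrays that the platform annotation assigned to 1 of these genes was taken, which gave 21 probe sets for 10 genes among 22277 probe sets in all. Each gene had between 1 and 5 probe sets, and no further probe set named a member together with another gene. FBN2 was chosen by its signal in M1, M4 and M5 against control and between the lines, which was already known from these data, so its values against control and between lines are given as a description, without a test. The other 9 genes, with 19 probe sets, were tested.

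The study profiled human non-small cell lung carcinoma (NSCLC) cells on 13 Affymetrix arrays, a platform on which short probes report the abundance of each transcript as brightness. The groups were the highly metastatic lines M1, M4 and M5, with 3 arrays each, which had been recovered from bone of mice after control cells were injected into the heart and then re-injected to test how readily they colonised bone. The other groups were control cells described as non-metastatic, 2 arrays of cells with a luciferase reporter and 2 arrays of cells without it. Each array held RNA pooled from 3 groups of cells of its line, the labels call the arrays of a group biological replicates, and the name of the parental cell line was not given in the sources used here.

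Microfibrils are thin extracellular filaments built from fibrillins, large secreted glycoproteins that polymerise outside the cell and give tissues elasticity. They also store growth factors: latent TGF-beta binding proteins (LTBPs) tether inactive TGF-beta to the filament, and fibrillins bind the prodomains of bone morphogenetic proteins. Fibulins and microfibril-associated proteins connect the filament to elastin and its cross-linking enzymes. FBN2 is best known from embryonic tissue and developing bone, and inherited changes in it cause congenital contractural arachnodactyly, whereas changes in FBN1 cause Marfan syndrome.

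FBN2 lies on chromosome 5, at chr5:128257909-128538245 of build GRCh38.p14, on the minus strand. Since FBN2 is the member whose signal differed most between the groups, the 250 bases before its annotated start are shown as RefSeq gives them, at chr5:128538246-128538495, 5′ to 3′ on the minus strand, with GC boxes and an E-box in capitals.
FBN2 upstream region: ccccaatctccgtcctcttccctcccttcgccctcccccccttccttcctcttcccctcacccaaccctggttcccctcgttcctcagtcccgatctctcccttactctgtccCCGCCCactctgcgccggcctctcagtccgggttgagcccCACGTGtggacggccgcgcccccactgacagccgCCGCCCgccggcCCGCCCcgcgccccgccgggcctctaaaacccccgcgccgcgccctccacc
The GC box was searched as CCGCCC or GGGCGG, which covers both strands, and occurred 3 times. The E-box CACGTG, which reads the same on both strands, occurred 1 time, and the TATA box, TATAAA or TTTATA, occurred 0 times; none of the matches overlapped. Of 35116 promoter windows of the same length, 42.6% held a GC box, 6.34% held this E-box and 10.7% held this TATA box. The window was 72.8% G and C with 25 CG dinucleotides, against 45.2% to 81.6% in 13 windows of 8 other members and a median of 58% over all windows. These matches describe the letters only, and promoter activity was not measured.

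The deposited values were log2 signals normalised together, and the median signal of an array was between 5.61 and 5.69. The quartiles were less even. M5 replicates 2 and 3 had lower quartiles of 4.40 and 4.36, against 4.16 to 4.28 on the other arrays. Their upper quartiles were 7.47 and 7.55, against 7.59 to 7.74. By the 62 Affymetrix control probe sets the arrays fell into 4 array sets that the labels do not record: set 1 held replicate 1 of both controls and M1 replicate 2; set 2 held replicate 2 of both controls and replicate 1 of each line; set 3 held M1 replicate 3 and M4 replicates 2 and 3; and set 4 held M5 replicates 2 and 3. All 13 arrays correlated best with an array of their own array set, and only 4 of 13 with one of their own group. Every comparison was therefore fitted without the array sets and again with them as a block. With the block, M5 rests on M5 replicate 1, because set 4 holds no other group.

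FBN2 signal was lowest in M5, intermediate and scattered in M1, and at the level of control in M4. On probe set 203184_at the log2 signal was 4.77, 4.46 and 4.45 on the 3 M5 arrays. It was 6.06, 6.55 and 8.18 on the M1 arrays and 8.60, 8.93 and 8.69 on the M4 arrays. Control cells with luciferase had 7.69 and 8.55, and control cells without luciferase had 8.59 and 9.55. The M5 arrays lay below every other array, and the M4 arrays lay within the range of control. In M1, replicates 1 and 2 lay below all control arrays, while replicate 3 lay above the lower of the luciferase controls.

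**Figure D1:**
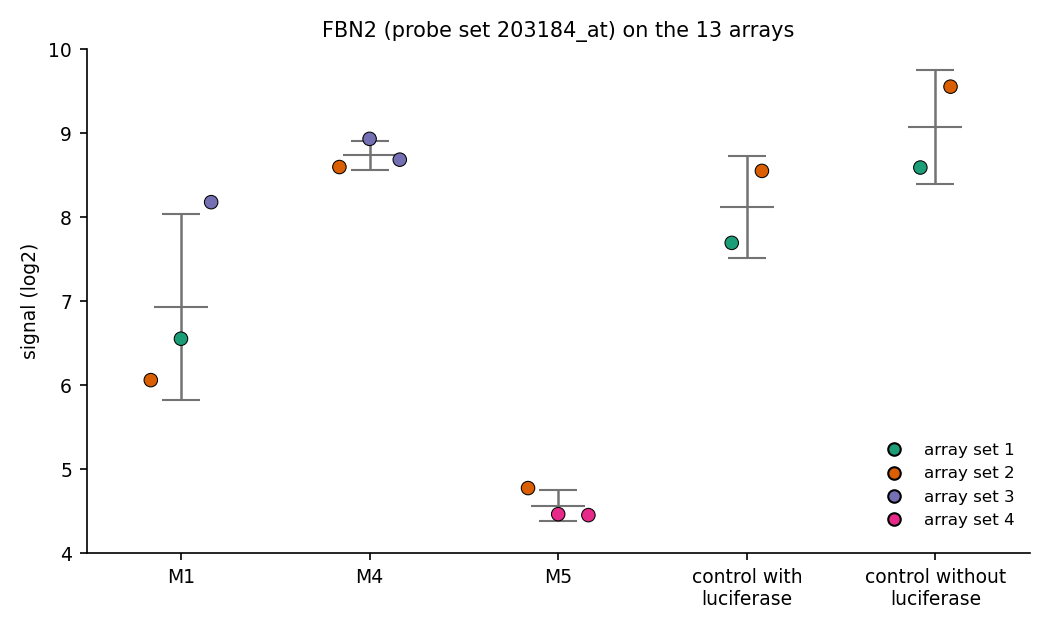
Log2 signal of FBN2 probe set 203184_at (vertical axis) on each array, by group, with the group mean and SD as grey bars and colours for the 4 array sets. The 3 M5 arrays sit between 4.45 and 4.77, and the M1 arrays spread between 6.06 and 8.18.

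In group means, FBN2 reached 6.93 ± 1.11 for M1, 8.74 ± 0.17 for M4 and 4.56 ± 0.18 for M5 (SD, n = 3 each), against 8.12 ± 0.61 in control with luciferase and 9.07 ± 0.68 in control without luciferase (SD, n = 2 each). From high to low the order was control without luciferase, M4, control with luciferase, M1 and M5. By mean and SD the first 3 groups overlapped one another and M1 overlapped control with luciferase. By single arrays M4 lay within control without luciferase, control with luciferase lay below both, M1 reached into control with luciferase through its replicate 3, and M5 overlapped no group. The M5 difference from the mean of the controls was -4.03 in log2 signal (standard error 0.41). The M1 difference was -1.67 (3.18-fold lower) and the M4 difference was 0.14 (1.10-fold higher). The mean of the 3 lines, with equal weights, differed from control by -1.85, or by -2.31 with the array sets as a block. No detection calls were used here, and 9 haematopoietic and endothelial markers had mean log2 signals between 3.29 and 4.65, a range that holds the M5 mean of FBN2. The M5 signal was thus not shown to stand above background, and the M5 differences are differences of signal that do not size the loss of RNA. In such bulk RNA, fewer cells with the transcript and less transcript per cell cannot be told apart.

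Among the lines, the log2 difference was -4.17 for M5 against M4, -2.37 for M5 against M1 and 1.81 for M4 against M1 (3.50-fold higher). The 22215 probe sets were ranked from the most negative difference. This FBN2 probe set was number 1 in M1 against control, number 7 in M5 against control and number 6 in M5 against M4. On the M5 arrays its signal stood at the 26.6 to 37.8 percentile of all probe sets, against the 76.1 to 91.5 percentile on the control arrays. The M4 arrays stood at the 84.5 to 87.6 percentile. All M5 arrays lay below all control arrays, as 5.82% of all probe sets did.

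The 3 M1 arrays lie in 3 different array sets, so the scatter among them and the sets cannot be told apart. M1 replicate 3, the high array, is the one in set 3, and over all probe sets it was closest to M4 replicate 2 (Pearson r = 0.997), an array of the same set. Without it the M1 difference from control was -2.29. The M1 array differed from the controls of its own set by -1.59 in set 1 and by -2.99 in set 2, on the log2 scale.

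Within array set 2, which alone holds all 5 groups, FBN2 read 6.06 on the M1 array, 8.60 on the M4 array and 4.77 on the M5 array, against a mean of 9.05 over its 2 controls. The differences there were -2.99 for M1, -0.46 for M4 and -4.28 for M5. With the array sets as a block the differences from control were -2.06 for M1, -0.75 for M4 and -4.12 for M5. M5 against M4 was -3.37 with the block. The low M5 signal was thus present within a set as well as across sets, whereas M4 lay slightly above control without the sets and below it with them.

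The reporter itself was a comparison that had no part in choosing FBN2. Control cells with luciferase had 7.69 and 8.55 and control cells without it 8.59 and 9.55, a log2 difference of -0.95 (95% interval -2.11 to 0.21). The difference did not pass the test (limma, adjusted p = 1.00, unadjusted p = 0.101). It was -0.90 within set 1, and in set 2, too, the array with luciferase was the lower one. With the array sets as a block the limma adjusted p was 0.785 and the unadjusted p was 0.0208.

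The other FBN2 probe set, 215717_s_at, did not show the low M5 signal. It was dim, below the lower quartile of every array, with log2 signals between 3.34 and 3.93. It averaged 3.48 over M1, 3.80 over M4 and 3.64 over M5, against 3.64 in control. The M5 difference from control was -0.01 on this probe set. Its Pearson correlation with 203184_at was 0.37 over the 13 arrays and 0.76 over the 10 arrays without M5, given as a description. The FBN2 differences above rest on 203184_at alone.

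FBN1, the fibrillin of adult connective tissue, showed no difference from control in M5 or M1 of the size seen for FBN2. Its brighter probe set, 202766_s_at, had log2 signals of 5.61, 6.19 and 6.95 in M1, 6.10, 6.54 and 6.56 in M4 and 6.07, 5.84 and 5.60 in M5. The control arrays lay between 5.72 and 6.22. Every line overlapped the controls, and M1 replicate 3 was again the highest M1 array. Against control, M1 differed by 0.23, M4 by 0.39 and M5 by -0.18 on the log2 scale, none of which passed the test (limma, adjusted p = 1.00, 0.928 and 0.740). In M5 against M4 it was -0.57 (limma, adjusted p = 0.388). The dimmer probe set, 202765_s_at, ranged between 4.45 and 5.45 and differed from control by 0.31 in M5, in the other direction.

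The LTBPs form the large latent complex with TGF-beta in LTBP1, LTBP3 and LTBP4, while LTBP2 does not bind TGF-beta and acts in microfibril assembly. All 7 LTBP probe sets were dim to moderate, with log2 signals between 4.17 and 6.03 over all arrays. The means of LTBP1 202729_s_at were 4.75 ± 0.25 in M1, 4.61 ± 0.06 in M4 and 4.71 ± 0.12 in M5 (SD, n = 3 each), against 4.67 ± 0.10 in control (SD, n = 4). LTBP3 had 4.80, 4.56 and 4.65 in M1, 5.04, 4.63 and 4.57 in M4 and 5.10, 4.44 and 4.54 in M5, against 4.40 to 4.62 on the control arrays. In M4 and M5 the high LTBP3 array was replicate 1, the array of set 2. The 3 LTBP4 probe sets differed from control in M5 by -0.27, 0.00 and 0.05 on the log2 scale.

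EFEMP1, a fibulin also known as fibulin 3 that is secreted by many cell types, was bright on both of its probe sets. They were the members' probe sets that lay above the upper quartile on every array, with log2 signals of 11.90 to 12.48 on 201842_s_at and 8.92 to 9.92 on 201843_s_at. Brightness depends on the probes as well as on the RNA, so this places each probe set among all others on its array and does not order genes. On 201843_s_at, M4 had 9.58, 9.64 and 9.76, against 9.47 and 9.47 in control with luciferase and 9.19 and 9.25 in control without it. All M4 arrays lay above all controls there, as 5.34% of all probe sets did, and the difference of 0.31 did not pass the test (limma, adjusted p = 0.885; 0.07 with the array sets as a block). It was the 1 member probe set besides FBN2 on which the arrays of a line did not overlap those of control.

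EFEMP2, a fibulin needed for elastic fibre formation, MFAP2, a small glycoprotein bound to fibrillin, and FBLN1, a fibulin of basement membranes and elastic fibres, were dim. MFAP2 ranged between 4.83 and 5.15 over the 13 arrays, and the 95% interval of its M5 difference from control was -0.14 to 0.28. The 5 FBLN1 probe sets ranged between 3.73 and 5.78, and the 2 EFEMP2 probe sets between 4.35 and 6.08. In all, 13 of the 19 probe sets of the other 9 genes stayed below the median of every array.

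**Figure D2:**
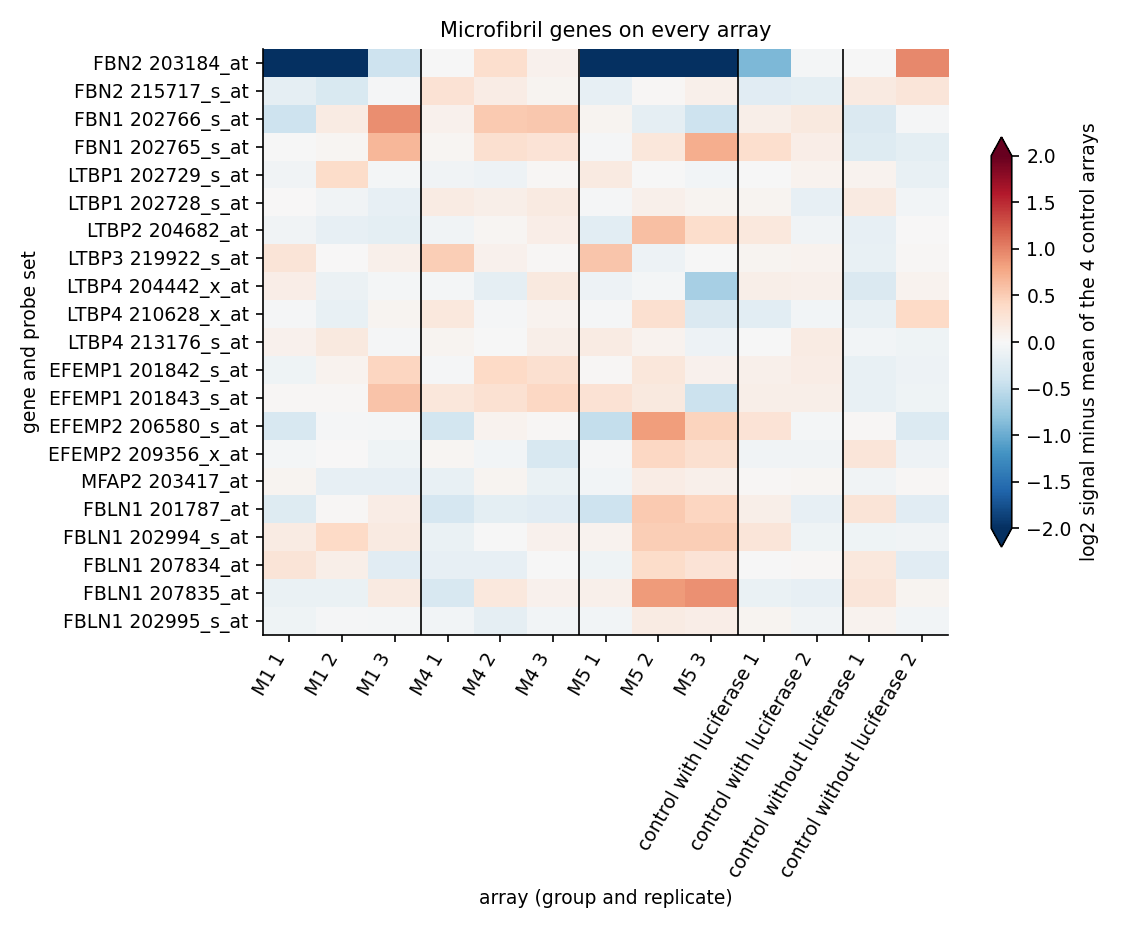
Log2 signal of each of the 21 probe sets (rows) on each array (columns) minus the mean of the 4 control arrays, in colour and capped at 2 either way. FBN2 203184_at is the darkest row, blue in M1 replicates 1 and 2 and in all M5 arrays, and the FBLN1 and EFEMP2 rows are redder in M5 replicates 2 and 3 than in M5 replicate 1.

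Tested by limma over all 22215 probe sets that are no Affymetrix controls, with Benjamini-Hochberg adjustment and a threshold of 0.05, 0 of the 19 probe sets rose and 0 fell in any of the 8 comparisons. The share of all probe sets called was 0.063% for the mean of the lines against control, 0.0135% for M1 against control, 0.009% for M4 against control and 1.4% for M5 against control. It was 1.25% for M5 against M4, 0.617% for M5 against M1, 0.0135% for M4 against M1 and 0% for luciferase, shares at which fewer than 1 of 19 would be called. At an unadjusted p under 0.05 the members counted 2 in M5 against control, 3 in M5 against M4, 2 in M5 against M1, 1 in M4 against M1 and 0 in the other 4 comparisons. Over all probe sets the share at that p was 16.4%, 13.3%, 13.4% and 2.8% in the 4 comparisons named and 1.26% to 7.47% in the others, so the members' counts lay near or below the general rate, apart from M4 against M1, where 1 of 19 is the smallest count above 0. With the array sets as a block 0 were called again, where the share of all probe sets called was 0.428% for the mean of the lines, 0.239% for M1, 0.108% for M4 and 1.54% for M5, each against control. It was 1.59% for M5 against M4, 1.37% for M5 against M1, 0.0855% for M4 against M1 and 0.018% for luciferase. At an unadjusted limma p under 0.05 with the block, the members counted 4 in M4 against control, beside 6.55% of all probe sets. They counted 3 for luciferase (beside 5.63%), 3 for the mean of the lines (9.11%) and 2 in M4 against M1 (4.71%). These 4 counts lay above the general rate. The members counted 1 in M1 against control (9.04%), M5 against control (14.1%), M5 against M4 (13.5%) and M5 against M1 (14.5%), below it.

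The intervals describe the difference in signal of each probe set in the fit without the array sets. They do not bound the change in RNA, since 13 of the 19 probe sets stayed below the median of every array. Over the 19 probe sets the 95% intervals of the difference from control reached from -0.66 to 0.77 in M1, from -0.70 to 0.93 in M4 and from -0.72 to 1.03 in M5, on the log2 scale. The differences themselves ran from -0.14 to 0.25 in M1, from -0.25 to 0.39 in M4 and from -0.27 to 0.62 in M5. Their median was 0.11 in M5, beside 0.03 over all probe sets, -0.0063 in M4, beside -0.0053, and -0.0050 in M1, beside -0.0075. For none of the 19 did an interval reach the size of the FBN2 difference in M5, but most were too dim to show such a fall. Only the 2 EFEMP1 probe sets lay above the upper quartile on every array, and no conclusion is drawn for the dim ones.

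**Figure D3:**
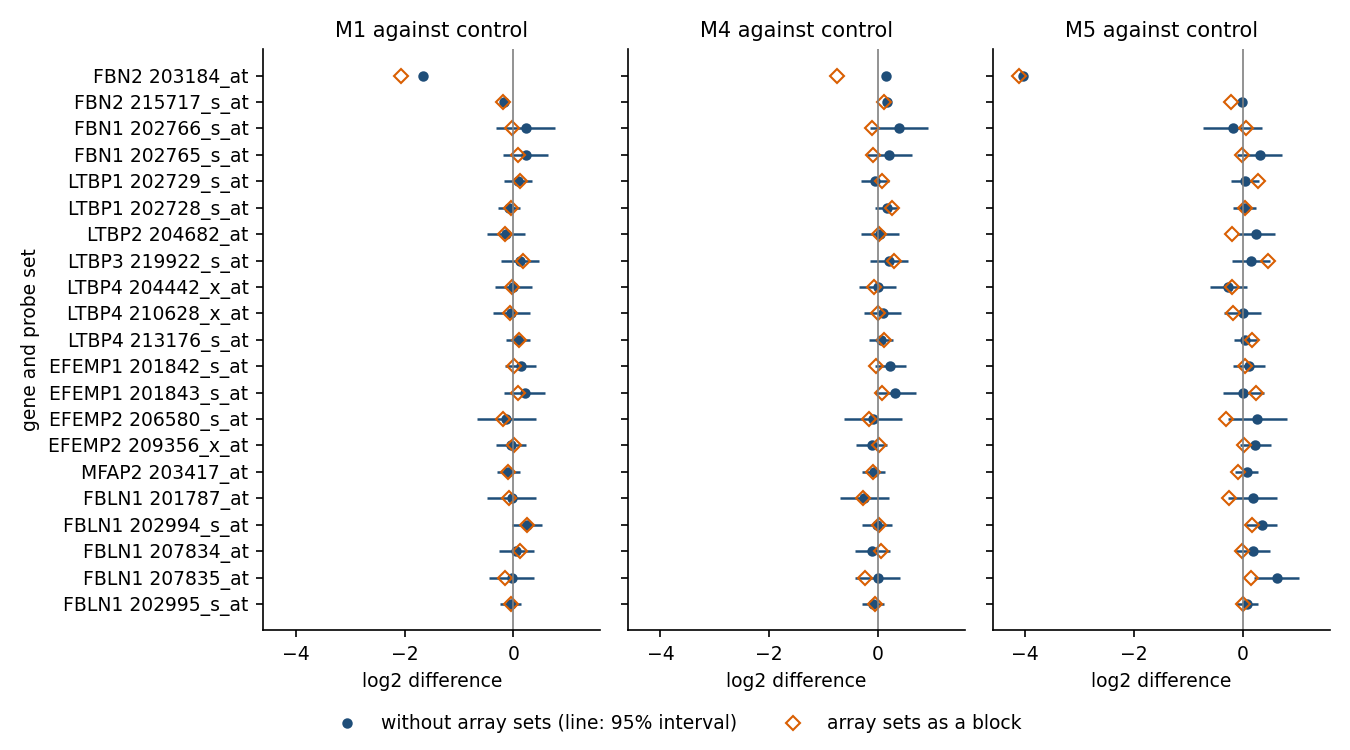
Log2 difference from control (horizontal axis) in M1, M4 and M5 for the 21 probe sets (rows), as circles without the array sets and diamonds with them as a block. Lines are 95% intervals for the 19 tested probe sets, which all lie between -0.72 and 1.03, while FBN2 203184_at is given without an interval at -1.67, 0.14 and -4.03.

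The count in M5 turned on M5 replicate 1. Without that array, 5 of the 19 probe sets rose in M5 against control, 6 in M5 against M4 and 5 in M5 against M1, with 0 falling, and the M5 group then consisted of the arrays of set 4 alone. In the same fits the share of all probe sets called higher was 10.5% in M5 against control, 7.21% in M5 against M4 and 7.95% in M5 against M1. The 5 against control were FBLN1 207835_at, 202994_s_at and 201787_at, EFEMP2 206580_s_at and LTBP2, named after their values were seen. FBLN1 207835_at had 4.50, 5.25 and 5.31 on M5 replicates 1 to 3, against 4.26 and 4.23 in control with luciferase and 4.63 and 4.46 without it. EFEMP2 206580_s_at had 4.76, 6.08 and 5.68 in M5, against 5.52 and 5.20 in control with luciferase and 5.27 and 4.96 without it. LTBP2 had 4.69, 5.50 and 5.25 in M5, against 5.12 and 4.84 in control with luciferase and 4.74 and 4.91 without it. On each of these, M5 replicates 2 and 3 were above M5 replicate 1, and on EFEMP2 and LTBP2 replicate 1 was below every control.

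For M5 against control without that array, the log2 differences were 0.88 for FBLN1 207835_at (limma, adjusted p = 0.00201), 0.64 for EFEMP2 (limma, adjusted p = 0.0188) and 0.47 for LTBP2 (limma, adjusted p = 0.0155). Within array set 2, M5 replicate 1 differed from the controls by 0.16 on FBLN1 207835_at, -0.32 on EFEMP2 206580_s_at and -0.19 on LTBP2. Line and array set cannot be told apart for M5 replicates 2 and 3. The lower quartile of all probe sets was also higher on these arrays than on any other, and its part in the rise of dim members was not tested. FBN2 did not turn on that array: its difference from control was -4.14 without M5 replicate 1, and -3.82 with M5 replicate 1 as the only M5 array.

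Around the members, 50 of 60 listed genes of the pathway were measured, in 6 lists and with 1 probe set per gene. In the list of TGF-beta ligands and their activators, 1 of 14 measured genes fell and 0 rose in M5 against control (TGM2), 3 fell in M5 against M4 (TGM2, ITGB5 and TGFB2) and 1 fell in M5 against M1 (TGM2). With the array sets as a block 1 of the 14 was called, ITGB5 in M5 against M4. Over all probe sets 1.13%, 1.05% and 0.486% were called lower in these comparisons. The medians of the list in these comparisons were 0.09, 0.05 and 0.00, beside 0.03 for all probe sets in each. In the other 5 lists (8 fibulins, fibrillin relatives and emilins, 4 genes of elastin and lysyl oxidases, 5 fibrillin-associated ADAMTS and ADAMTS-like genes, 10 matrix partners and fibrillin receptors, and 9 BMP and GDF ligands) limma called 0 genes in any comparison without the array sets, and with them as a block EMILIN1 in M5 against M1. Over all 50 genes, the number at an unadjusted p under 0.05 was 6 for the mean of the lines, 3 for M1, 4 for M4 and 9 for M5 against control. It was 12 for M5 against M4, 10 for M5 against M1, 3 for M4 against M1 and 2 for luciferase. Among all probe sets, shares against control were 7.47% for the mean of the lines, 2.79% for M1, 6.27% for M4 and 16.4% for M5. The shares were 13.3% for M5 against M4, 13.4% for M5 against M1, 2.8% for M4 against M1 and 1.26% for luciferase. The 50 genes lay above the share of all probe sets in each comparison, but only narrowly in M5 and M4 against control. This excess was not tested. The lists were chosen with earlier results of these data known. They hold only the brightest probe set of each gene, whereas all probe sets include the dim ones, so the shares are not like for like.

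TGM2, the transglutaminase that cross-links matrix proteins and the large latent complex, was low in M5. The M1 arrays had log2 signals of 9.23, 9.18 and 8.82, with 8.15, 9.50 and 9.05 in M4 and 7.22, 6.82 and 6.94 in M5, against 8.83 and 8.27 in control with luciferase and 8.98 and 8.19 in control without it. All 3 M5 arrays lay below every other array. The difference was -1.57 from control (limma, adjusted p = 0.0215), -1.90 from M4 (limma, adjusted p = 0.0105) and -2.08 from M1 (limma, adjusted p = 0.0110). With the array sets as a block the differences were -1.06, -1.34 and -1.50 and did not pass the limma test (adjusted p = 0.165, 0.104 and 0.0654). The call against control was also lost without M5 replicate 2, M5 replicate 3 or replicate 1 of either control (limma, adjusted p between 0.0846 and 0.109).

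The TGM2 call against M4 was lost without M4 replicate 2 or 3 or M5 replicate 2 or 3 (limma, adjusted p between 0.0510 and 0.0633). The one against M1 was lost without M1 replicate 1 or 2 or M5 replicate 2 or 3 (limma, adjusted p between 0.0555 and 0.0744). Of the other 3 TGM2 probe sets, 2 were lower in M5 than in control by 0.85 and 0.79 on the log2 scale without passing the test, and the dimmest was higher by 0.33.

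ITGB5, the beta subunit of an integrin that can activate TGF-beta, fell in M5 against M4. The signals were 8.69, 8.81 and 9.34 in M1, 9.15, 9.45 and 9.57 in M4 and 8.39, 8.27 and 8.28 in M5, against 8.81 and 8.73 in control with luciferase and 8.64 and 8.56 in control without it. M5 lay below and M4 above every control array, and M5 against M4 was -1.08 (limma, adjusted p = 0.00642), or -0.67 with the block (limma, adjusted p = 0.0385). This call was kept when any 1 array was left out, and was lost with M5 replicate 1 as the only M5 array (limma, adjusted p = 0.109). ITGB5 against control did not pass in M4 (0.71; limma, adjusted p = 0.227) or in M5 (-0.37; limma, adjusted p = 0.252). Of the other 3 ITGB5 probe sets, 201124_at also fell in M5 against M4 (-1.41; limma, adjusted p = 0.0251; -0.79 and adjusted p = 0.0654 with the block), and the remaining ones differed by -0.34 and -0.21 without passing. ITGB5 lies on chromosome 3.

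TGFB2, a TGF-beta ligand, was also lower in M5 than in M4, by 1.04 on the log2 scale (limma, adjusted p = 0.0345). Its signals were 5.42, 5.81 and 6.11 in M1, 6.15, 6.50 and 6.54 in M4 and 5.70, 5.16 and 5.21 in M5, against 5.60 and 5.97 in control with luciferase and 5.17 and 5.67 without it. The M4 arrays lay above every control and every M5 array. TGFB2 against control did not pass in M4 (0.80; limma, adjusted p = 0.362) or in M5 (-0.25; limma, adjusted p = 0.550). With the block M5 against M4 was -0.44 (limma, adjusted p = 0.426). The dimmer TGFB2 probe set 209908_s_at fell in that comparison too, by 0.73 (limma, adjusted p = 0.0192), and was not called with the block (-0.43; limma, adjusted p = 0.231). The remaining TGFB2 probe sets differed by -0.81 and 0.17 without passing (limma, adjusted p = 0.199 and 0.736). The call of the brightest probe set was lost when any 1 of 8 arrays was left out (M1 replicate 2, each M4 array, M5 replicates 2 and 3, and each luciferase control; limma, adjusted p between 0.0506 and 0.176). EMILIN1, an elastin-microfibril interface protein, was called only with the block, in M5 against M1 (-0.68; limma, adjusted p = 0.0456; -0.38 and adjusted p = 0.520 without it).

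**Figure D4:**
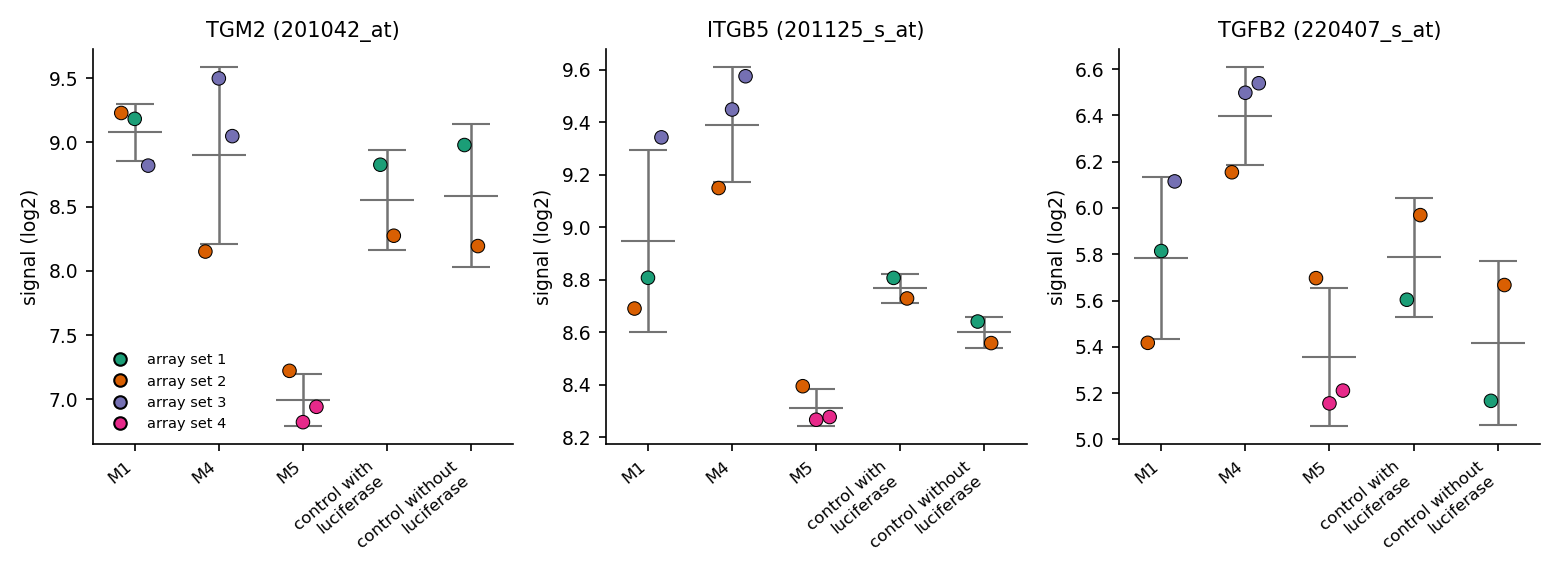
Log2 signal (vertical axes, with different ranges) of TGM2, ITGB5 and TGFB2 on each array, by group, with group mean and SD as grey bars and colours for the array sets. M5 sits between 6.82 and 7.22 for TGM2 and between 8.27 and 8.39 for ITGB5, below all other arrays in both, and M4 is high for ITGB5 and TGFB2.

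The epithelial character of the cells was partly visible in their markers. KRT8, KRT18 and KRT19 lay above the upper quartile on all 13 arrays, whereas the epithelial adhesion genes EPCAM and CDH1 lay below the lower quartile on all 13. Of the haematopoietic and endothelial markers none exceeded the median on any array, and the 4 lung markers differed. SFTPC lay above the median on all 13 arrays, SFTPB lay below it on 2 and NKX2-1 on 12, and SCGB1A1 lay below the lower quartile throughout. SPP1, which encodes osteopontin, lay above the upper quartile on all 13 arrays, and the other measured osteoblast markers, IBSP, RUNX2 and ALPL, lay below the median on all 13. Over 10 fibroblast and stroma markers the mean log2 signal was between 5.30 and 5.39 in M1, 5.19 and 5.26 in M4 and 5.16 and 5.30 in M5, against 5.10 to 5.30 in control. Of these 10, COL3A1 lay above the upper quartile and COL1A1 above the median on all 13 arrays, the other 8 lay below the median on at least 10 arrays, and LUM, FAP and POSTN of these lay below the lower quartile on every array.

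COL3A1, a fibrillar collagen of that list, was the 1 marker of 33 that limma called. The log2 difference of M5 against M1 was -1.72 (limma, adjusted p = 0.0343; -1.54 and adjusted p = 0.0230 with the block), with 10.93, 10.10 and 9.80 in M1, 9.12, 8.40 and 8.16 in M5 and 8.75 to 9.43 on the control arrays. In M1 against control it rose by 1.43 with the block (limma, adjusted p = 0.00387), and without the block the difference was 1.19 (limma, adjusted p = 0.851). The M5 against M1 call was lost without any 1 array other than M4 replicate 1 or M5 replicate 1 (limma, adjusted p between 0.0520 and 0.183). COL3A1 probe set 201852_x_at was called there too, at -1.66 (limma, adjusted p = 0.0306), or -1.52 with the block (limma, adjusted p = 0.0123). Probe set 211161_s_at was at -2.13 (limma, adjusted p = 0.0593), or -1.52 with the block (limma, adjusted p = 0.0291). The dimmest, 215077_at, was at -0.02 and not called. The part of COL3A1 in the FBN2 pattern was not tested.

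No measured gene next to FBN2 showed a fall of its size in M5 or M1. The neighbours were taken by position without regard to brightness, and a dim one could hardly show such a fall. Among the 20 nearest measured genes, 10 on each side on chromosome 5, the M5 difference from control ran from -0.41 for LMNB1, a nuclear lamin, to 0.48 for SNCAIP, with a median of 0.03, against a median of 0.05 over 507 measured genes of the chromosome. The immediate neighbours were SLC12A2, an ion cotransporter, at 0.34 and SLC27A6, a fatty acid transporter, at 0.16. In M1 the 20 neighbours ran from -0.47 to 0.09 and in M4 from -0.62 to 0.25. Without the array sets, none of the 20 differed from control by over 1 on the log2 scale in M1, M4 or M5. With them as a block the M5 differences from control ran from -0.56 for PDLIM4 to 0.61 for SLC22A4. In M5 against M4, limma called 0 of the 20 without the block and 3 with it, beside 1.59% of all probe sets with it.

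**Figure D5:**
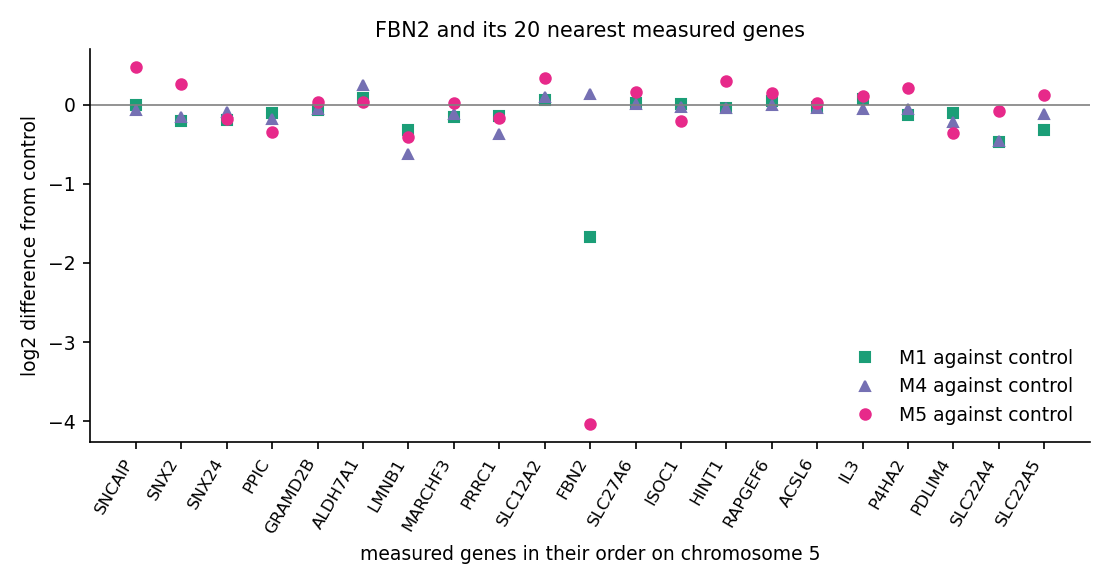
Log2 difference from control (vertical axis) of FBN2 and its 20 nearest measured genes in their order on chromosome 5, for M1 (squares), M4 (triangles) and M5 (circles). FBN2 stands at -4.03 in M5 and -1.67 in M1, and all neighbours lie between -0.62 and 0.48.

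Among the brighter probe sets, those whose signal ran most like FBN2 lay elsewhere in the genome. The search covered 9886 probe sets, those naming 1 gene with a mean signal above the median of all probe sets. Over these and the 13 arrays the highest Pearson correlations were 0.94 for EXOG, a mitochondrial nuclease, and 0.93 for RPP14, a subunit of ribonuclease P. Next came 0.93 for IP6K2, an inositol phosphate kinase, 0.92 for CD47, a surface signal that restrains phagocytosis, and 0.91 for CLDN1, a tight junction protein. All 5 lie on chromosome 3. Of the 100 most alike, a number chosen after the values were seen, 74 lie on chromosome 3, against 5.351% of the probe sets compared. Their own differences from control in M5 were smaller than that of FBN2, from -0.45 for CD47 to -1.40 for CLDN1 on the log2 scale. The 13 arrays share 5 groups and 4 array sets, so the correlations are a description. Over the 10 arrays without M5 they were between 0.74 and 0.81.

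In the opposite direction the lowest correlations were -0.85 for WDR55, -0.85 for TBXA2R, the thromboxane receptor, -0.84 for AP1M2, a clathrin adaptor subunit of epithelial cells, -0.84 for BAHCC1 and -0.83 for PDPK1, a kinase that activates AKT. Over the 10 arrays without M5 these 5 were between -0.67 and -0.34. Among the members themselves the correlation with FBN2 ran from -0.76 for FBLN1 202994_s_at to 0.50 for FBN1 202766_s_at. All 5 FBLN1 probe sets, both EFEMP2 probe sets, LTBP2 and MFAP2 were on the negative side, between -0.76 and -0.38. Over the 10 arrays without M5 the correlations of these 9 probe sets ran from -0.74 for FBLN1 202994_s_at to 0.41 for FBLN1 207835_at, and 4 of them were above 0. These are also the genes whose signals were highest on M5 replicates 2 and 3.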

How the data were processed

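The authors deposited log2 signals of 22277 probe sets on 13 arrays. They come from RMA, per the submitters' processing notes. Version, chip definition and further steps: not given in the sources used here. RMA normalises all arrays together, which is meant to even out brightness between whole arrays. The quartiles of the deposited values still differed between arrays, and probe-specific differences between array sets are not removed. Genes were named from the platform annotation: 1043 probe sets naming several genes and 2108 naming none gave no gene name. Leaving out 62 Affymetrix control probe sets, 22215 were fitted with limma 3.58.1 in R 4.3.3 (lmFit and eBayes, 5 group means, Benjamini-Hochberg over all, threshold 0.05). Control is the mean of both kinds of control. Array sets came from Ward clustering of the Affymetrix control probe sets, after the data were seen. Members and lists were chosen with earlier results of these data known; pathway genes are named where called in either fit, by their brightest probe set. Alternatives were the array sets, each kind of control alone, median centring, quantile normalization, a replicate block, a robust trended prior, a filter on dim probe sets, 1 probe set per gene, a threshold of 0.01, only the arrays compared, and leaving out arrays. The p-values measure the spread between these arrays. Their number limits the precision.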

Additional observations from a re-analysis of the deposited data

Results flagged for a closer look

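Among the 4 control arrays, each of the 21 probe sets was examined for 1 array standing apart by Dixon's ratio of the gap to its nearest neighbour over the whole range, at the 95% level, and 4 of 21 did. Chance would give about 1 in 20 such cases if the 4 arrays were independent draws from 1 normal group. These arrays differ in kind of control and array set, and the probe sets share them, so that rate need not hold here. LTBP4 204442_x_at was 5.55 on control without luciferase replicate 1, against 5.90 to 5.95 on the other control arrays. EFEMP2 209356_x_at was 4.91 on that same array, against 4.57 to 4.60. MFAP2 203417_at was 4.93 there, against 5.01 to 5.03. FBLN1 202994_s_at was 4.95 on control with luciferase replicate 1, against 4.63 to 4.64. Both arrays singled out belong to array set 1.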

How the results depend on the processing

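Of 188 counts of called member probe sets under the alternatives, 185 were 0; leaving out 1 array gave 0 to 5 in M5 against control, 0 to 6 in M5 against M4 and 0 to 5 in M5 against M1, each upper value without M5 replicate 1. Of 131 FBN2 differences, 126 kept their sign and 129 moved by less than 1 SD; with the array sets as a block, M4 against control was -0.75 and M5 against M4 was -3.37. In M5 against control the small, uncalled differences of 8 other members reversed: with the array sets as a block FBN1 was 0.055, LTBP2 -0.20, EFEMP2 -0.32, MFAP2 -0.087 and FBLN1 -0.26; with M5 replicate 1 as the only M5 array (chosen after seeing the data) FBN1 was 0.052, LTBP2 -0.22, EFEMP2 -0.47, MFAP2 -0.047 and FBLN1 -0.41. LTBP1 was -0.046 under quantile normalization, and leaving out 1 array gave -0.026 to 0.098 for LTBP1, -0.056 to 0.27 for LTBP3 and -0.016 to 0.64 for EFEMP2; LTBP1 was -0.011 without control without luciferase replicate 2. EFEMP1 was -0.015 against control with luciferase alone. The causes were not tested.

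Replicate numbers did not pair the arrays across all groups. Over 23 pairs of same-numbered arrays the correlation of their deviations was -0.52 to 0.54, and 16 were not over 0.1. The highest value was that between the 2 kinds of control, whose same-numbered arrays share an array set. Replicate 1 of each line also shares a set, with correlations of 0.41 for M1 and M4, 0.47 for M4 and M5 and 0.05 for M1 and M5. With the replicate block 0 member probe sets were called in each comparison, and FBN2 was -4.21 in M5, -1.85 in M1 and -0.04 in M4 against control. Signal over background limits FBN2 in M5 and the dim members: 13 of the 19 probe sets besides FBN2 stayed below the median of every array, and no detection calls were used here.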
